A study of Homo sapiens with 4 samples.

Results

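ZNF genes encode zinc finger proteins, and the members described here are all genes whose symbol is ZNF followed by a number, with or without 1 further letter, and whose mean level over the 4 libraries was at least 2 RPKM (reads divided by exon length and by the reads counted in the library). Of the 32955 genes in the table, 511 carried such a symbol and 186 reached that level. They were thus chosen by their measured level, and 61 of them lie on chromosome 19 and 125 on other chromosomes. RNA-seq was performed on 4 libraries of cells labelled as MDA-MB-231, an estrogen receptor-negative line derived from a human breast cancer. Cells of 2 libraries had received mimic NC, an oligonucleotide that serves as the negative control, by transfection, and those of the other 2 had received miR-217 mimic, a synthetic duplex that takes the place of the microRNA miR-217. Every library came from this 1 line and every cell sample had received an oligonucleotide, so untransfected cells are not part of the comparison. The study used the libraries to look for genes that miR-217 lowers, and the libraries of each group are numbered 1 and 2. What the number marks was not given in the sources used here, nor whether the 2 libraries of a group came from separate cultures, so p-values measure the spread between these libraries, which may be technical.

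Most ZNF proteins are of the C2H2 kind, in which repeated finger domains each hold a zinc ion between a pair of cysteines and a pair of histidines and read a few bases of DNA or RNA. Many of them also carry a KRAB domain, which recruits TRIM28 (KAP1) and the histone methyltransferase SETDB1 to silence the bound DNA, often a retrotransposon. Chromosome 19 holds large tandem arrays of KRAB zinc finger genes that arose by duplication, while other ZNF proteins act as activators, as RNA-binding or ribosome-associated proteins, or as parts of chromatin complexes. A microRNA such as miR-217 pairs through its seed, the bases near its 5′ end, with target mRNAs, mostly in the 3′UTR, and lowers their level or translation.

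Possible pairing with these genes was looked for through the seed of miR-217, which is shown in capitals in the mature strand (bases 2 to 8, RefSeq, GRCh38.p14, chr2:55983020-55983042, minus strand). It pairs with the DNA letters ATGCAGT, which were searched on the sense strand of the transcript with the longest coding sequence of each gene in GENCODE 29.
hsa-miR-217-5p: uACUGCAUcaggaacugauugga

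Of the 182 members with a coding transcript, 26 (14.3%) held this heptamer in the 3′UTR, compared with 11.9% of the 9955 tested genes with a coding transcript. In the coding sequence it was present in 41 members (22.5%), compared with 14.6% of those genes. The median 3′UTR was 1110 bases long in members and 932 bases in those genes. Neither share was adjusted for sequence length. ZNF84 held 8 copies in its coding sequence, ZNF605 held 6 and ZNF432 held 5. In ZNF84 neighbouring copies lay at whole multiples of 84 bases in 7 of 7 steps, and 84 bases is the length of 1 finger with its linker (28 residues). Of the 67 copies in the members' coding sequences, 46 (68.7%) had the letters TGC in frame as a cysteine codon, compared with 223 of 1689 (13.2%) in other genes. At 43 copies, in 23 members, this codon was the first or the second cysteine of a finger. The repeat can be seen in 4 neighbouring copies of ZNF84 and in 1 copy each of ZNF605, ZNF432 and ZNF12, all on GRCh38, with the heptamer in capitals.
ZNF84 (chr12:133058095-133058101, plus strand): accctttatATGCAGTaaatg
ZNF84 (chr12:133058179-133058185, plus strand): accgtatgaATGCAGTgagtg
ZNF84 (chr12:133058263-133058269, plus strand): accatatgtATGCAGTgaatg
ZNF84 (chr12:133058347-133058353, plus strand): accctatgaATGCAGTgaatg
ZNF605 (chr12:132926699-132926705, minus strand): gccctatcaATGCAGTgagtg
ZNF432 (chr19:52035055-52035061, minus strand): aaaccacgtATGCAGTgaatg
ZNF12 (chr7:6692126-6692132, minus strand): gccctatgaATGCAGTgaatg

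A different context was found in ZNF292 and in the 3′UTR of ZNF12 and ZNF609, where it does not hold the codon of a finger cysteine. ZNF292 and ZNF12 are shown since they are among the members with the lowest mimic differences described further on, and were thus picked by their values. ZNF609 is a further example of a 3′UTR copy. Low differences were not limited to this context. Among members with a finger cysteine copy and no 3′UTR copy, the lowest difference was -0.27. The capitals again mark the heptamer.
ZNF292, coding sequence (chr6:87255250-87255256, plus strand): caagcctacATGCAGTattgt
ZNF12, 3′UTR (chr7:6689064-6689070, minus strand): ataggagttATGCAGTtcaga
ZNF609, 3′UTR (chr15:64683035-64683041, plus strand): tccttagaaATGCAGTctccc

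The table held 32635814 to 57933183 recovered reads per library, and both libraries numbered 2 were smaller than both numbered 1. The lowest read number of a member in 1 library was 48 (ZNF888), and over the members the median of the lowest read number was 653.5. The cell label was checked against markers. All 7 genes of the MDA-MB-231 list were present, with VIM (vimentin) at 27.9 to 36.9 RPKM and MSN at 93.5 to 157 RPKM. Others of that list were lower, with CAV1 at 5.17 to 7.92 RPKM, AXL at 6.23 to 8.71 RPKM and LGALS1 at 13.2 to 20.2 RPKM. However, CDKN2A, a tumor suppressor gene that MDA-MB-231 is known to have lost, was at 10.5 to 13.2 RPKM, and the keratins KRT8 and KRT18 were at 142 to 421 RPKM. Of the other luminal markers with values, ESR1 was at 0.0294 to 0.0756 RPKM, GATA3 at 0.0637 to 0.104 RPKM and CDH1 at 0.169 to 0.433 RPKM. FOXA1 was at 1.3 to 1.7 RPKM and EPCAM at 3.9 to 7.41 RPKM. CDKN2A goes against the label. KRT8 and KRT18, listed as luminal markers, were above every gene of the MDA-MB-231 list in each library. The cells are therefore called the cells labelled MDA-MB-231.

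As a group, the ZNF genes were expressed at low levels that differed little between libraries. The median mean level of the 186 members was 3.71 RPKM, compared with 7.12 RPKM for all 11040 genes that reached 2 RPKM, and 119 members (64%) were under 5 RPKM while 17 were above 10 RPKM. Together they took 0.608% to 0.64% of the reads of a library. Members on chromosome 19 had a median of 2.92 RPKM and those on other chromosomes 4.72 RPKM, and these medians were 3.09 and 4.62 RPKM in mimic NC replicate 1, 2.97 and 4.77 RPKM in mimic NC replicate 2, 3.04 and 4.7 RPKM in miR-217 mimic replicate 1, and 2.79 and 4.6 RPKM in miR-217 mimic replicate 2. The chromosome 19 median was thus the lower one in each library. These levels chose the members and are given as a description. Just inside the limit lay ZNF286A with a mean of 2.01 RPKM and ZNF133 with 2.02 RPKM, and just outside it ZNF816 and ZNF614, both with 1.99 RPKM.

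ZNF622, a cytoplasmic protein of ribosome subunit maturation, had the highest level at 137 and 121 RPKM in mimic NC and 129.8 and 127 RPKM in miR-217 mimic. The second was ZNF146, a protein that consists almost only of fingers, at 33 and 42.2 RPKM in mimic NC and 33.5 and 39.4 RPKM in miR-217 mimic. It is the highest of the chromosome 19 members by a wide margin, since the next one, ZNF480, was at 8.77 to 9.23 RPKM. ZNF330, a nucleolar protein in which no C2H2 finger was matched, came next at 28.9 to 44.3 RPKM. ZNF664 (30.5 to 42 RPKM), ZNF131 (27.4 to 36.4 RPKM) and ZNF638 (27.6 to 31.5 RPKM) followed, and the ranges of these members overlapped with that of ZNF330. ZNF131 carries a BTB domain, and ZNF638 recruits the HUSH silencing complex to unintegrated retroviral DNA. ZNF768 at 22.8 to 29.1 RPKM overlapped with ZNF638 in turn, and ZNF777 at 16.6 to 22.8 RPKM reached just above the lowest value of ZNF768. ZNF146 shares 10.8% of its exon bases with ZNF565, ZNF664 shares 5.99% and ZNF768 5.39% with other listed genes, and how reads on shared bases were assigned was not given in the sources used here.

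**Figure D1:**
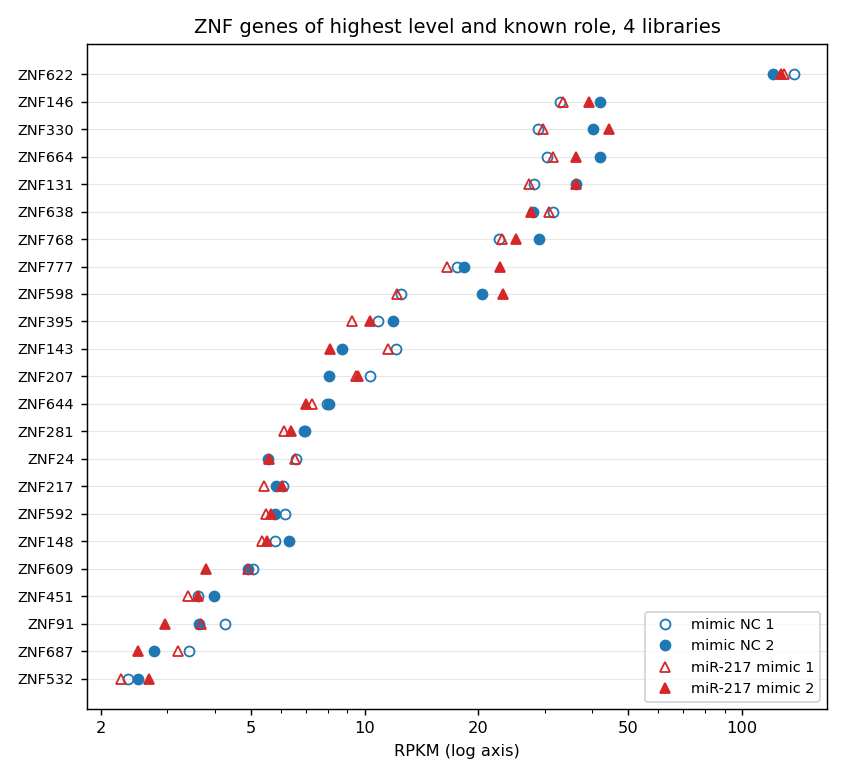
RPKM (log axis) in the 4 libraries of the 8 ZNF genes with the highest mean level and of the members with a well-known role, ordered by their mean. Circles are mimic NC and triangles miR-217 mimic, open for libraries numbered 1 and filled for number 2. ZNF622 stands above the others at 121 to 137 RPKM, and most genes lie between 2 and 20 RPKM.

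The list of ZNF genes with a known role held 20 genes, of which 17 reached 2 RPKM. Among those that act on ribosomes or mitosis, ZNF598, a ubiquitin ligase that senses collided ribosomes, was at 12.2 to 23.2 RPKM, and ZNF207 (BuGZ), which acts in spindle assembly, was at 8.06 to 10.3 RPKM. Among promoter-binding factors, ZNF143, an activator of mRNA and small nuclear RNA genes, was at 8.08 to 12.1 RPKM. ZNF281 was at 6.11 to 6.93 RPKM, ZNF24 at 5.56 to 6.57 RPKM and ZNF148 (ZBP-89) at 5.34 to 6.28 RPKM. ZNF217, which lies in a region amplified in breast cancers, was at 5.4 to 6.07 RPKM. These promoter-binding factors other than ZNF143 therefore sat within a narrow range. Of the 3 partners of the ZMYND8 chromatin complex, ZNF592 was at 5.47 to 6.17 RPKM, ZNF687 at 2.51 to 3.42 RPKM and ZNF532 at 2.26 to 2.69 RPKM, so that ZNF592 was above the other two in every library. ZNF644, a partner of the methyltransferases EHMT1 and EHMT2, was at 7.01 to 8.04 RPKM. ZNF395 was at 9.23 to 11.9 RPKM, but 34.9% of its exon bases belong to FBXO16 as well. ZNF609 (3.79 to 5.07 RPKM), the SUMO ligase ZNF451 (3.39 to 3.98 RPKM) and ZNF91 (2.96 to 4.25 RPKM), a repressor of SVA retrotransposons, were the lower members of the list beside ZNF687 and ZNF532.

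Chromosome 19 contributed a smaller share of its ZNF genes than the other chromosomes pooled. Of its 248 listed ZNF genes, 61 (24.6%) reached 2 RPKM, compared with 125 of 263 (47.5%) elsewhere, although the shares of chromosomes X (18.2%), 4 (22.2%) and 9 (23.1%) were lower still. When the chromosome was divided at every gap of over 1 Mb between the starts of neighbouring ZNF genes (coordinates as deposited, hg38), 16 stretches were obtained. The share of members was 48% (12 of 25) from 43.5 to 45.1 Mb and 37.5% (15 of 40) from 51.6 to 53.6 Mb, both on the long arm. It was 25% (14 of 56) in the stretch nearest the long-arm end. In the stretch from 19.7 to 24.1 Mb, which spans the array next to the centromere, 3 of 36 (8.33%) reached the limit, among them ZNF91, and from 36.2 to 37.8 Mb 2 of 26 (7.69%) did. Since the level was the rule for choosing members, these shares describe where the expressed genes lie and were not tested. Reads of recently duplicated genes can match several copies, and how such reads were counted was not given in the sources used here.

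**Figure D2:**
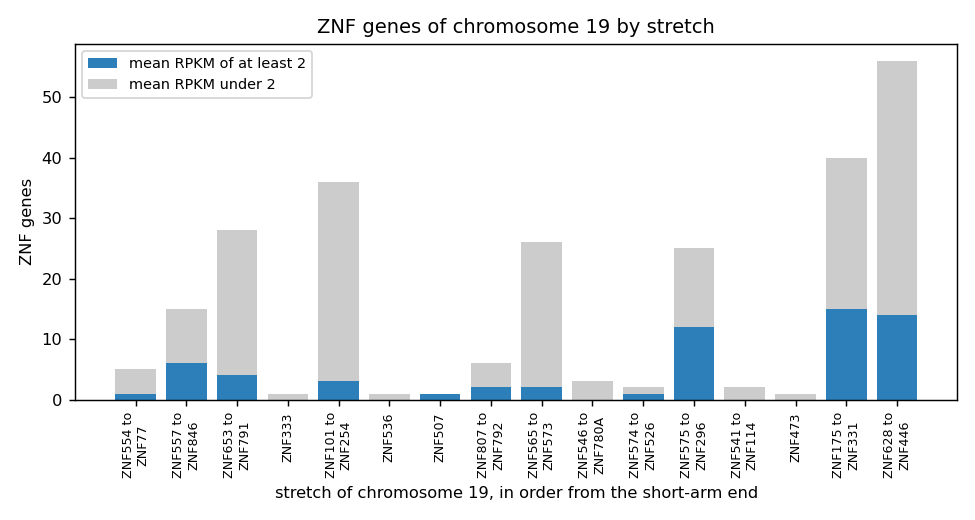
Number of ZNF genes (vertical axis) in 16 stretches of chromosome 19, in order along the chromosome and named by their first and last gene. The filled part of a bar counts members and the grey part ZNF genes under 2 RPKM, with 12 of 25 members from ZNF575 to ZNF296 and 3 of 36 from ZNF101 to ZNF254.

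The proteins differed between the 2 groups of members as well. C2H2 fingers were counted in the translated GENCODE transcripts by the spacing of their cysteines and histidines. The median was 12 fingers per protein for chromosome 19 and 8.5 for other chromosomes, and ZNF91 had the most with 32. A KRAB pattern was found in 45 of 60 proteins on chromosome 19 (75%) and in 43 of 122 elsewhere (35.2%). The pattern covers the KRAB A box only in its common forms, and a protein without a match may still hold the domain. Members with the KRAB pattern had a median mean level of 3.3 RPKM and those without it 4.69 RPKM. A further 4 members (ZNF271P, ZNF252P, ZNF702P and ZNF767P) are named as pseudogenes and were at 2.42 to 6.98 RPKM.

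The first comparison, miR-217 mimic against mimic NC, asks which ZNF genes change when miR-217 is supplied. No ZNF gene changed at a Benjamini-Hochberg adjusted p under 0.05 in limma, nor did any other of the 13871 genes tested. At an unadjusted p under 0.05, 0 members were lower (background 0.707% of genes tested) and 1 was higher (background 0.483%). This count of 1 among 186 members is close to the background. The 4 libraries of 2 against 2 do not allow an exact permutation test of a single gene to go below p = 0.333 (two-sided).

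ZNF367 was the member with an unadjusted p under 0.05. It was at 3.56 and 3.32 RPKM in mimic NC (3.44 ± 0.17, SD, n = 2) and at 4.78 and 5.33 RPKM in miR-217 mimic (5.05 ± 0.39, SD, n = 2). Both libraries with miR-217 mimic were therefore above both with mimic NC. The fold change was 0.45 ± 0.12 (SE) on the log2(RPKM + 1) scale, on which changes of genes with low values appear smaller, with an unadjusted limma p of 0.0154 and an adjusted p of 1.00. ZNF367 lies at chr9:96385941-96418329 on the minus strand, shares no exon base with another listed gene and holds no copy of the heptamer in the transcript searched. The unadjusted limma p was 0.0621 without mimic NC replicate 1, 0.104 without mimic NC replicate 2 and 0.0747 without miR-217 mimic replicate 2, with differences of 0.49, 0.41 and 0.38 that stayed about as large, in fits that leave 1 group with a single library.

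In 15 members the miR-217 mimic libraries were both above the mimic NC libraries (background 9.72% of genes tested), and in 34 members both were below (background 13.5%). These counts are 8.06% and 18.3% of the members. After ZNF367, the highest differences among them belonged to ZNF692, ZNF326, ZNF107 and ZNF589, none of which passed the unadjusted threshold. ZNF692 was at 5.76 and 5 RPKM in mimic NC and 5.9 and 7.54 RPKM in miR-217 mimic (0.27 ± 0.16, SE). ZNF326, part of a complex that couples transcription elongation to splicing, was at 16.7 and 16.8 RPKM in mimic NC and 17.2 and 23 RPKM in miR-217 mimic (0.24 ± 0.17, SE). In both genes the second miR-217 mimic library, the one with fewest reads, was well above the other 3. Without that library the difference was 0.12 for ZNF692 and 0.04 for ZNF326. ZNF107 differed by 0.17 ± 0.14 (SE), and by 0.06 without mimic NC replicate 2, and ZNF589 differed by 0.14 ± 0.11 (SE).

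The lowest mimic difference among all members was that of ZNF292, a large zinc finger gene that is mutated in chronic lymphocytic leukaemia. It was at 4.51 and 4.55 RPKM in mimic NC and at 3.52 and 3.59 RPKM in miR-217 mimic, a change in the mean of -21.5%. The libraries of each group lay close together and the groups did not overlap. On the log2(RPKM + 1) scale the difference was -0.28 ± 0.11 (SE), with an unadjusted limma p of 0.0546 and an adjusted p of 1.00. In limma voom on recovered reads its unadjusted p was 0.0336. ZNF292 holds 3 copies of the heptamer in its coding sequence, none of which is at a finger cysteine, and none in its 3′UTR.

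Among members whose groups did not overlap, the next lowest were ZNF112, ZNF593, ZNF888 and ZNF12. ZNF112, a chromosome 19 member with 13 fingers, was at 3.01 and 3.44 RPKM in mimic NC and 2.58 and 2.53 RPKM in miR-217 mimic (-0.25 ± 0.12, SE), and it shares 12% of its exon bases with another listed gene. ZNF593 was at 9.11 and 9.5 RPKM against 8.29 and 7.25 RPKM (-0.24 ± 0.12, SE), but 92.2% of its exon bases are shared with a gene on the opposite strand, and the strand setting of the counting was not given in the sources used here. ZNF888 (-0.22 ± 0.14, SE) rests on 48 to 122 reads per library and shares 15.1% of its exon bases. ZNF12 was at 5.49 and 5.43 RPKM in mimic NC and 4.94 and 4.25 RPKM in miR-217 mimic (-0.21 ± 0.12, SE), and it is the only one of these 5 with the heptamer in its 3′UTR. Without the second miR-217 mimic library the difference was -0.15 for ZNF593 and -0.12 for ZNF12, and without mimic NC replicate 1 it was -0.11 for ZNF888. The unadjusted limma p of the last 4 lay between 0.098 and 0.172.

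**Figure D3:**
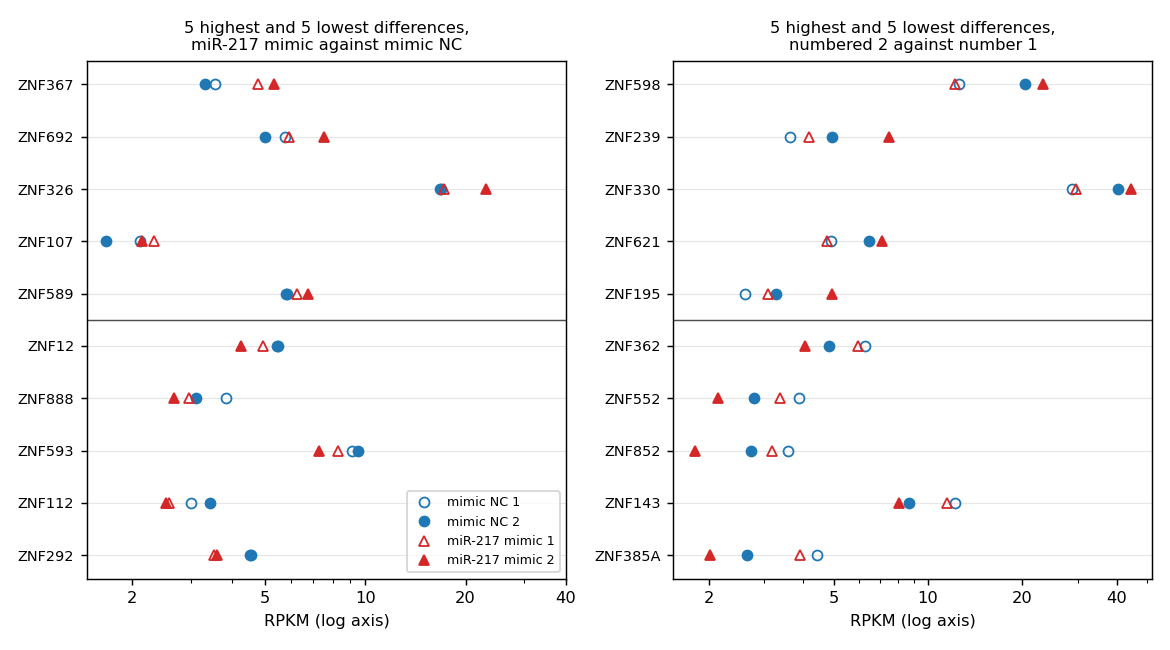
RPKM (log axis) in the 4 libraries of the 5 members with the highest and the 5 with the lowest difference among those whose libraries do not overlap, for miR-217 mimic against mimic NC (left) and for libraries numbered 2 against number 1 (right). Symbols are as in the plot of levels, and the horizontal line separates higher from lower. On the left triangles and circles separate, and on the right filled and open symbols do, with the widest gap for ZNF598 at 12.2 to 12.5 against 20.4 to 23.2 RPKM.

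The members as a whole stayed close to the other genes in this comparison. The median difference was -0.019 on the log2(RPKM + 1) scale for all members, -0.029 for chromosome 19 and -0.006 for the other chromosomes, beside -0.017 for all genes tested and -0.022 for the 619 other chromosome 19 genes that reached 2 RPKM. For the 42 ZFP, ZBTB, ZSCAN and ZKSCAN genes, which are zinc finger genes under other names, it was -0.010. Within libraries numbered 1 the members' median was -0.033 and within number 2 it was 0.002, so that its sign was not the same in both. From the lowest to the highest, members ranged from -0.28 to 0.45, and chromosome 19 members from -0.25 to 0.19. A difference of at least 0.32 in either direction was seen in 3 members (1.61%) compared with 5.25% of all genes tested. Among tested genes with a coding transcript, the share was 1.93% of those with a 3′UTR heptamer. It was 2.22% of those with the heptamer in neither the 3′UTR nor the coding sequence. For the ZFP, ZBTB, ZSCAN and ZKSCAN genes the share was 0%. On this scale changes of genes with low values appear smaller.

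The heptamer classes are given as medians without a test. The 26 members with a copy in the 3′UTR had a median difference of -0.067, and 18 of them were below 0. The 122 members with no copy in the 3′UTR or the coding sequence had a median of -0.005, and 65 of them were below 0. These classes rest on the transcript with the longest coding sequence. In the longest 3′UTR of any transcript, 33 members held a copy. Among the members classed here as having none, ZNF207 held 2 copies in such a longer 3′UTR. Over all genes tested, the corresponding medians were -0.043 for 1189 genes with a 3′UTR copy and -0.013 for 7520 genes with neither. The median of the members with a 3′UTR copy was -0.038 within libraries numbered 1 and -0.041 within number 2, while that of the members with neither was -0.033 and 0.022. The 18 members with a copy at a finger cysteine and none in the 3′UTR had a median of -0.015, with values from -0.27 to 0.07. ZNF84, with 8 such copies, was at 4.94 and 5.07 RPKM in mimic NC and at 4.56 and 4.91 RPKM in miR-217 mimic, and ZNF432, with 5 in the coding sequence and 1 in the 3′UTR, was at 2.79 and 2.6 RPKM against 2.68 and 2.83 RPKM. ZNF605, with 6 in the coding sequence and 1 in the 3′UTR, was at 5.16 and 5.42 RPKM against 4.82 and 5.21 RPKM. In ZNF432 and ZNF605 the groups overlapped, while in ZNF84 both mimic libraries were below both control libraries. Their differences of -0.07 ± 0.11 for ZNF84, 0.02 ± 0.12 for ZNF432 and -0.07 ± 0.12 for ZNF605 (SE) were each smaller than the error.

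**Figure D4:**
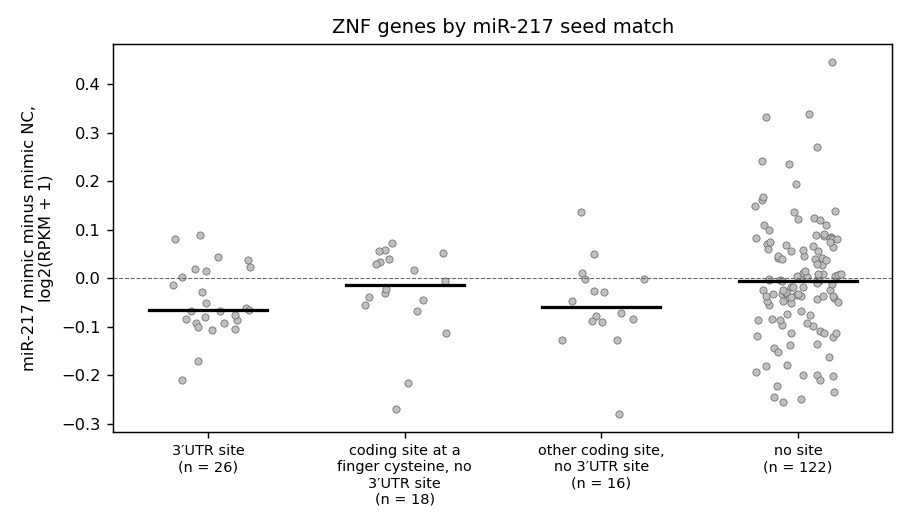
Difference in log2(RPKM + 1) between miR-217 mimic and mimic NC (vertical axis) for the 182 members with a coding transcript, grouped by where the miR-217 heptamer lies. Each point is 1 gene and the bar is the median, which is -0.067 for a 3′UTR copy, -0.015 for a copy at a finger cysteine, -0.060 for another coding copy and -0.005 for no copy.

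The second comparison sets the libraries numbered 2 against those numbered 1, each pair made of 1 mimic NC and 1 miR-217 mimic library. It was made because the libraries of the same number resembled each other, and it uses the same 4 libraries as the first. Since the grouping was chosen from these same values, its p-values can be too small and are given as a description. At an adjusted p under 0.05 in limma, 1 ZNF gene was lower (background 3.71% of genes tested) and 5 were higher (background 3.34%) in libraries numbered 2. These are 0.538% and 2.69% of the members, and all 6 lie outside chromosome 19. What differs between the numbers was not given in the sources used here, and the smaller depth of the libraries numbered 2 goes along with it. The epithelial and luminal markers moved as well: over the 7 of 9 listed markers with values, the summed level was 683 to 730 RPKM in libraries numbered 1 and 305 to 326 RPKM in number 2. This sum consisted mostly of KRT8 and KRT18, and EPCAM went the other way, from 3.9 to 5.06 RPKM in mimic NC and from 5.16 to 7.41 RPKM in miR-217 mimic, while ESR1 was near 0 in all. For the 7 MDA-MB-231 markers the summed level was 259 to 262 RPKM and 191 to 216.8 RPKM, which followed MSN (154 and 157 RPKM against 93.5 and 104 RPKM). In contrast, CD44 was at 13.5 and 14.6 RPKM in libraries numbered 1 and at 17.3 and 26 RPKM in number 2, and AXL (6.23 and 6.27 against 8.12 and 8.71 RPKM) and EGFR (19.5 and 21.9 against 22.5 and 22.7 RPKM) were higher in number 2 as well. The part of these markers and of depth in the result was not tested, and in bulk RNA fewer cells of a type and less RNA per cell cannot be told apart.

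ZNF143 was the member that was lower. It was at 12.1 and 11.5 RPKM in the libraries numbered 1 and at 8.72 and 8.08 RPKM in those numbered 2 (mimic NC first), a change in the mean of -29%, and the 2 pairs did not overlap. The log2 difference was -0.45 ± 0.08 (SE), with an adjusted limma p of 0.0423. ZNF143 lies at chr11:9460319-9528524 on the plus strand and shares 7.58% of its exon bases with another listed gene.

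ZNF598 showed the highest difference. It was at 12.5 and 12.2 RPKM in the libraries numbered 1 (12.4 ± 0.24, SD, n = 2) and at 20.4 and 23.2 RPKM in those numbered 2 (21.8 ± 2, SD, n = 2). The mean was 76.7% higher, a log2 difference of 0.77 ± 0.09 (SE) with an adjusted limma p of 0.0231. ZNF598 lies at chr16:1997654-2009823 on the minus strand, and 10.7% of its exon bases belong to another listed gene as well.

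ZNF330, ZNF131, ZNF621 and ZNF300 were the other members that were higher. ZNF330 was at 28.9 and 29.7 RPKM in libraries numbered 1 and at 40.3 and 44.3 RPKM in number 2 (0.51 ± 0.08, SE). ZNF131 was at 28.1 and 27.4 RPKM against 36.4 RPKM in both libraries numbered 2 (0.38 ± 0.07, SE). These are 2 of the 5 members of highest level, and neither shares an exon base with another listed gene. ZNF621 was at 4.91 and 4.75 RPKM against 6.5 and 7.11 RPKM (0.42 ± 0.08, SE). ZNF300, a KRAB protein that was named after its values were seen, was at 11.9 and 12.4 RPKM against 15.7 and 16.2 RPKM (0.36 ± 0.07, SE). The adjusted limma p was 0.0355 for ZNF330, 0.0432 for ZNF131, 0.0495 for ZNF621 and 0.0492 for ZNF300. In each of the 6 called members the library pairs did not overlap, and the miR-217 mimic differences lay between -0.08 and 0.09. Both traits largely follow from the call, since the fit of the number takes differences between treatments as its spread. They are therefore not separate findings.

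Leaving out a library leaves 1 side with a single library, which is assumed to vary like the other 2, and changed the count of calls over all genes as over the members. Without mimic NC replicate 1 or without miR-217 mimic replicate 1, 0 members and 9 and 13 of all genes tested passed, and all 6 lost their call, with adjusted limma p from 0.159 for ZNF598 to 0.376 for ZNF300. The differences themselves stayed about as large, at 0.79 and 0.75 for ZNF598 and at -0.42 and -0.48 for ZNF143. Without mimic NC replicate 2, 8 members were lower and 18 higher, beside 17.3% and 11.1% of all genes tested, and without miR-217 mimic replicate 2, 3 and 9 were, beside 6.88% and 5.82%. With treatment as a term in the limma fit, the adjusted p became 0.0555 for ZNF621 and 0.0515 for ZNF300, and these were no longer called.

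In 60 members both libraries numbered 2 were below both numbered 1 (background 35.5% of genes tested), and in 48 members both were above (background 26.9%). These counts are 32.3% and 25.8% of the members. The lowest difference among them was that of ZNF385A, an RNA-binding partner of p53, at 4.42 and 3.91 RPKM against 2.65 and 2.01 RPKM. It differed by -0.64 ± 0.12 (SE) but stayed just over the threshold with an adjusted limma p of 0.0512, and it passed in 5 of the alternatives, among them limma voom on recovered reads. After ZNF143, ZNF852 (-0.43 ± 0.16, SE), ZNF552 (-0.42 ± 0.13, SE) and ZNF362 (-0.40 ± 0.10, SE) were next and had adjusted limma p from 0.0761 to 0.147. On the higher side, ZNF239 was at 3.62 and 4.15 RPKM against 4.92 and 7.49 RPKM, and ZNF195 at 2.6 and 3.09 RPKM against 3.27 and 4.94 RPKM. Both had their highest value in the second miR-217 mimic library and did not pass, with adjusted limma p of 0.136 and 0.213. Without that library the difference was 0.28 for ZNF239, 0.15 for ZNF195 and -0.23 for ZNF852.

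The differences between the numbers were spread less widely among chromosome 19 members. Their differences had an SD of 0.132 and ranged from -0.42 (ZNF552) to 0.30, beside an SD of 0.210 and a range from -0.64 to 0.77 for members on other chromosomes and an SD of 0.314 over all genes tested. A difference of at least 0.32 in either direction was found in 1 of 61 members on chromosome 19, in 17 of 125 elsewhere (13.6%) and in 22.6% of all genes tested, which include genes from 1 RPKM. The SD was 0.156 for members with the KRAB pattern on any chromosome and 0.212 for the ZFP, ZBTB, ZSCAN and ZKSCAN genes. For other chromosome 19 genes it was 0.329. A difference of at least 0.32 was found in 5.68%, 11.9% and 25.7% of these groups. The differences in spread were not tested, and on this scale changes of lower genes, as on chromosome 19, appear smaller. The median difference was -0.039 for chromosome 19 members and 0.016 for the others, beside -0.035 for all genes tested and -0.100 for other chromosome 19 genes. The median of chromosome 19 members was -0.037 within mimic NC and -0.034 within miR-217 mimic, and that of the others was 0.007 and 0.023.

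**Figure D5:**
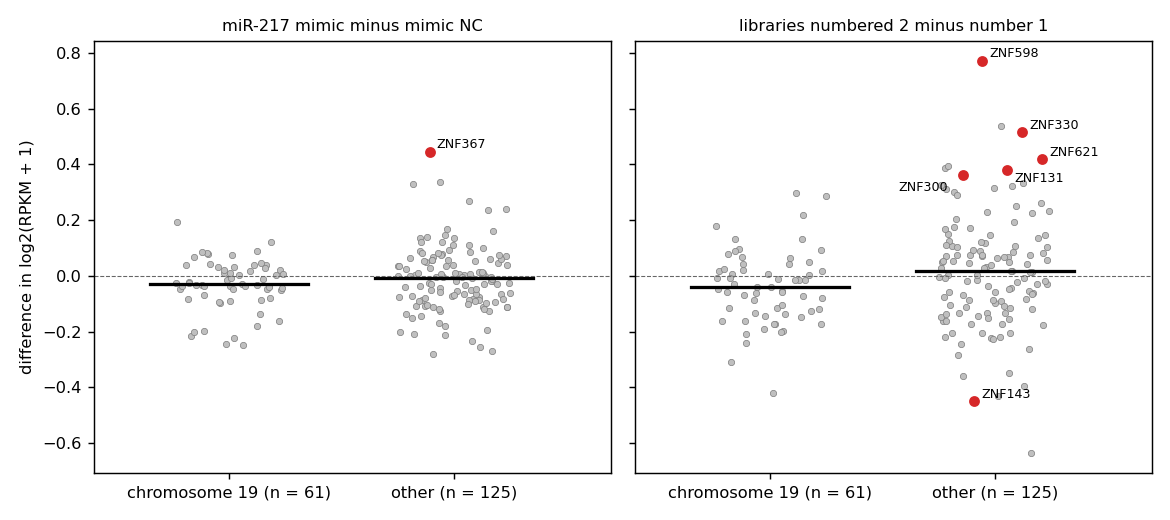
Difference in log2(RPKM + 1) (vertical axis) of each member for miR-217 mimic minus mimic NC (left) and libraries numbered 2 minus number 1 (right), split into 61 genes of chromosome 19 and 125 of other chromosomes. Points are genes, bars are medians, and named points passed an unadjusted p under 0.05 on the left or an adjusted p under 0.05 on the right. The left panel spans -0.28 to 0.45 and the right panel -0.64 to 0.77, and no chromosome 19 gene is named in either.

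For the proteins through which KRAB zinc fingers silence DNA, RNA levels were followed in a list of 28 co-repressor and heterochromatin genes, of which 26 were tested. TRIM28, the scaffold that binds KRAB domains, was at 15.5 and 12.2 RPKM in mimic NC and at 17.3 and 15.9 RPKM in miR-217 mimic. Both mimic libraries were above both control libraries, but the log2 difference of 0.25 had an unadjusted limma p of 0.168. SETDB1, the methyltransferase it recruits, was at 9.52 and 7.95 RPKM in mimic NC and at 9.71 and 7.88 RPKM in miR-217 mimic. The log2 difference of SETDB1 was 0.008 between treatments and -0.25 between numbers, and the latter did not pass, with an adjusted limma p of 0.09. Both libraries numbered 2 were below both numbered 1, an order seen in 35.5% of all genes tested. In the list 0 genes were lower and 0 higher with miR-217 mimic at an unadjusted p under 0.05, and the median difference was 0.034. Between the numbers 0 genes passed at an adjusted p under 0.05, while 8 were lower and 1 was higher at an unadjusted p under 0.05, with a median of -0.039. Over all genes tested, 17.4% were lower and 12.8% higher at that threshold, beside 8 and 1 of the 26 listed genes. CBX1, whose protein reads the histone mark that SETDB1 writes, had the highest RNA level of the list, at 155 to 170.5 RPKM. ZFP57 was at 0 to 0.057 RPKM.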

How the data were processed

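RNA-seq was measured in 4 libraries, 2 with mimic NC and 2 with miR-217 mimic, grouped by their labels. The authors deposited 1 table of RPKM values per gene with exon coordinates, and no per-sample column was without a sample. Per the labels and the submitters' processing notes, RNA was extracted with TRIzol, a kit for stranded mRNA libraries was used, and Trimmomatic 0.36, featureCounts of Subread 1.5.1, edgeR 3.12.1 and the build hg38 were applied. The aligner, the annotation, and the settings for strand and multiple matches were not given in the sources used here. Whole reads were recovered from the RPKM values (100% of values within 0.01 of a whole number), with 57933183, 47374957, 53356283 and 32635814 reads in mimic NC replicates 1 and 2 and miR-217 mimic replicates 1 and 2.

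The members, gene lists and tests were chosen with earlier results of these data known. Differences were fitted on log2(RPKM + 1) with limma 3.58.1 in R 4.3.3 (lmFit, eBayes with trend) for the 13871 genes whose mean RPKM was 1 or more, without covariates, two-sided, with Benjamini-Hochberg adjustment over all genes tested. All 186 members passed this filter. The fit was also run on simulated counts, which held no difference between libraries numbered 1 and 2. That run therefore does not show how the fit behaves on these libraries. Named were the 8 members of highest level, in each comparison the 5 highest and 5 lowest differences among members whose libraries do not overlap, the members nearest the level limit, the role list, TRIM28, SETDB1 and any co-repressor gene past the threshold of its comparison. Exon overlap was computed with bedtools 2.31.1 from the deposited coordinates, without regard to strand: 98 of 186 members shared at least 1 base with another listed gene. Coding sequences and 3′UTRs came from GENCODE 29 (GRCh38), the mature miRNA from RefSeq. Protein sequences were translated only to count fingers and the KRAB pattern. The alternatives tried were leaving the filter out or raising it to a mean RPKM of 5, a pseudocount of 0.1, centring each library on its median, limma voom on recovered reads, members from 1 RPKM, members that share no exon base, a replicate block or a treatment term, other p thresholds, and leaving out each library. Plots were made with matplotlib 3.10.9 in Python 3.11.15.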

Additional observations from a re-analysis of the deposited data

How the results depend on the processing

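For the miR-217 mimic, 0 members lower and 1 higher became 1 lower with limma voom on recovered reads, beside 0.404% of all genes tested. At a mean RPKM of at least 5, 0 were higher, beside 0.273% of the genes tested there. At an adjusted p under 0.05, 0 were higher, beside 0% of all genes tested. When a library was left out, the counts moved over the members and over all genes tested. With a replicate block, 4 members (ZNF292 and ZNF112 among them) were lower and 3 higher, beside 4.84% and 2.7% of all genes tested at the same threshold. Libraries of the same number deviated together (correlation 0.68), but the labels do not say that the number pairs them, and it is only a hint from the data. For the number, 1 lower and 5 higher became 0 and 0 without the filter, 3 and 13 with limma voom, 2 and 3 with treatment as a term, and 12 and 18 at an unadjusted p under 0.05. Over all genes tested the shares lower and higher moved as well, to 9.1% and 7.21%, 4.69% and 3.69%, and 17.4% and 12.8% in the last 3 settings. Without the filter they were 0.00607% and 0.00303%. With median centring 2 were lower, beside 3.54% of all genes tested, and among members sharing no exon base 0 were lower. Leaving out a library gave 0 to 8 lower and 0 to 18 higher. The cause of these changes was not tested, save that leaving out the filter raises the genes tested from 13871 to 32955. With no setting tried did a member named for its difference change sign, and of the 211 values recomputed for these members 173 stayed on their side of the threshold, 24 lost a call and 14 gained one.

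The medians of the members were near 0 and moved with the scaling. For the mimic, centring each library on its median gave 0.0071 for all members and -0.0026 for chromosome 19, whose median ran from -0.0434 to -0.0052 when a library was left out. For the number, the median of all members was -0.0118 with a pseudocount of 0.1, 0.0143 at a mean RPKM of at least 5, 0.0180 with centring, -0.0152 for members from 1 RPKM, -0.0011 for members sharing no exon base, and from -0.0203 to 0.0020 when a library was left out. For chromosome 19 these values were -0.0506, -0.0142, -0.0116, -0.0277, -0.0136 and from -0.0449 to -0.0231, with -0.0475 in limma voom. For other chromosomes they were 0.0341 at a mean RPKM of at least 5, 0.0436 with centring, -0.0022 from 1 RPKM, 0.0015 without shared bases and from 0.0000 to 0.0349 when a library was left out. At the lowest depth, 32635814 reads in miR-217 mimic replicate 2, read numbers depended on exon length as well as RPKM. ZNF286A and ZNF133, the members nearest 2 RPKM, had 472 and 392 reads there, while ZNF593 at 7.25 RPKM had 182. Members with few reads are counted least precisely.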
